A study of Homo sapiens with 4 samples.

Results

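The genes described here are the semaphorins, the plexins and the neuropilins, a family of guidance ligands with its receptors. They were taken as every protein-coding gene whose symbol begins with SEMA and a digit or with PLXN, together with NRP1 and NRP2. The rule found 31 of the 60483 genes in the count tables, made up of 20 semaphorins, 9 plexins and 2 neuropilins. RNA came from C4-2, an established human prostate cancer line, in 2 libraries of control cells and 2 libraries of enzalutamide-resistant cells. Enzalutamide is a hormone-blocking drug given for prostate cancer. The resistant cells were grown for 1 month with the drug, per the labels. Acquired resistance and exposure to the drug itself therefore cannot be told apart. All 4 libraries share 1 growth description, RPMI with serum, which also mentions FGF-2 without saying which cells received it. The labels give no clone, genotype, vehicle or drug dose, and nothing in them ties the replicates to separate cultures. The p-values therefore speak of variation among these 4 libraries alone, and part or all of it may be technical.

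Semaphorins are secreted or membrane-bound proteins that share a sema domain and were first known for repelling growing axons. Most bind plexins, transmembrane receptors whose cytoplasmic part switches off small GTPases of the Ras and Rap family and acts on RHOA and its relatives, which loosens adhesion and the actin cytoskeleton. Secreted class 3 semaphorins mostly need a neuropilin as a co-receptor beside the plexin, and neuropilins also bind vascular endothelial growth factors. In prostate cancer SEMA3C is known as a growth-promoting ligand.

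Gene counts totalled 25589724 and 29866008 in control and 45033885 and 39047453 in resistant libraries. Raw counts given below are therefore not directly comparable between the groups. Control libraries had more reads that were not aligned (34.2% and 37% of HTSeq records) than resistant libraries (20.3% and 20.7%). Luminal prostate markers were present in both groups, with KLK3 at 677.2 CPM (counts relative to the TMM-scaled library total) on average in control and 482.3 CPM in resistant cells. HOXB13 was at 248.1 and 351.0 CPM and KRT18 at 241.6 and 326.5 CPM. The 7 endothelial markers summed to 4.49 to 5.16 CPM in control and 2.97 to 3.34 CPM in resistant libraries, nearly all of it VWF, and PECAM1 and CDH5 had at most 3 counts in any library. The 6 leukocyte markers summed to 0.767 to 1.43 CPM over all 4 libraries, with CD3E at 0. The 7 fibroblast markers summed to 9.06 to 11.2 CPM in control and 8.78 to 9.33 CPM in resistant libraries, with COL1A2 at 0. The 9 neural markers summed to 33.3 to 38.3 CPM in control and 8.4 to 9 CPM in resistant libraries, most of it MAP2.

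Semaphorin, plexin and neuropilin RNA was mostly higher in resistant cells, with 3 genes far ahead of the rest. SEMA3C and NRP1, a secreted ligand and its co-receptor, were abundant in control cells and rose 5.57-fold and 3.73-fold. SEMA5A went from a handful of reads to a clear level. The remaining changes were about 2-fold or less. Of the 31 genes, 24 passed the filter on low counts and were tested with edgeR's quasi-likelihood test, with p-values adjusted over all 20325 genes tested and a call made below 0.05. Of these 24, 16 were called higher and 3 lower, and 5 were not called. Over all genes tested, 33% were called higher and 31.7% lower, and over protein-coding genes 42.3% and 31.4%. The median log2 change was 0.52 over the tested members, -0.02 over all genes and 0.09 over protein-coding genes. At least 2-fold rises were called in 3 semaphorins and in NRP1, against 7.58% of all genes and 8.76% of protein-coding genes tested. Among the 3 semaphorins, SEMA5A passed the filter only through the resistant libraries. The groups did not overlap in 21 of the 24 tested members and in 81.3% of all genes tested. In such bulk libraries a change in the RNA of each cell and a change in the share of cells that hold it cannot be told apart.

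The number of rises depended on whether gene length and base composition were taken into account. Among protein-coding genes tested, the median log2 change was -0.23 for exonic lengths under 2 kb and 0.25 for 8 kb or more, and -0.18 for transcripts under 42% GC and 0.30 for 60% or more. The share called higher was 23.9% and 55.2% in these 2 length bins, and 28.4% and 52.8% in these 2 GC bins. The tested members are long and GC-rich, with exonic lengths of 3800 to 14160 bases, 11 of 24 at 8 kb or more, and 10 of 24 at 60% GC or more. With a correction for length and GC content in each library, 9 members were called higher and 9 lower, and their median log2 change was 0.11. Of all 20325 genes tested, the same correction called 6367 higher (31.3%) and 6627 lower. Of the 16 members called higher, 9 stayed higher with the correction: SEMA3C, SEMA3F, SEMA4A, SEMA4C, SEMA4F, SEMA5A, PLXNA3, PLXNB2 and NRP1. Another 3 were called lower and 4 were no longer called, and these are named below. Whether the correction removes a technical difference or part of a real one was not tested.

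**Figure D1:**
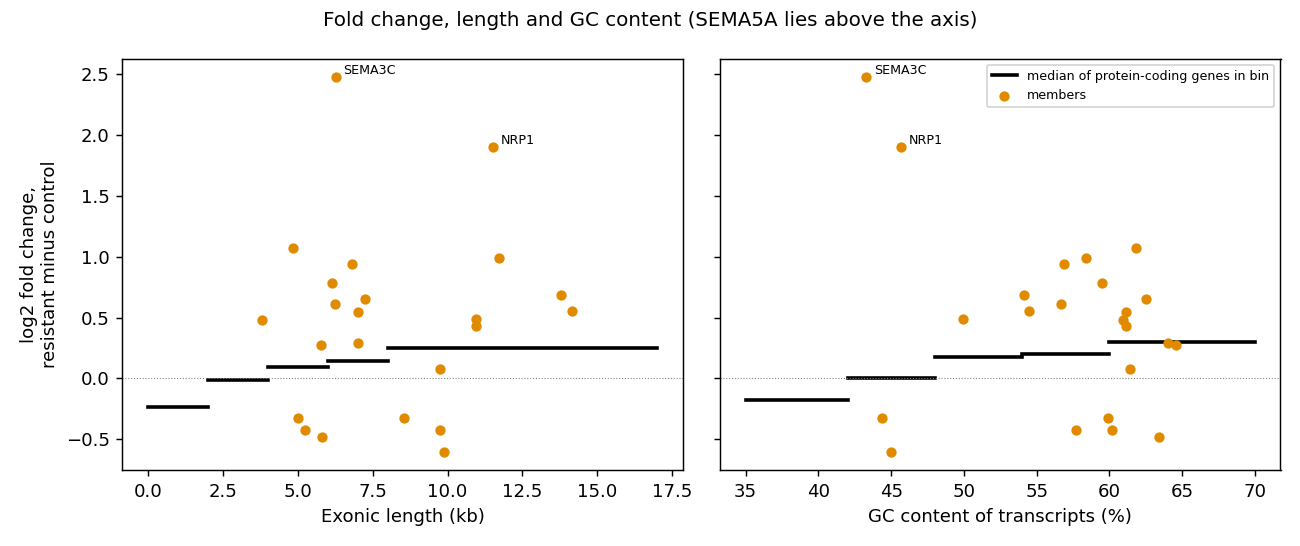
Log2 change of the tested members (orange points) against exonic length in kb (left) and GC content in percent (right). Black lines are medians of all tested protein-coding genes in each bin, and they climb from -0.23 to 0.25 with length and from -0.18 to 0.30 with GC content. SEMA3C and NRP1 lie well above the lines, and SEMA5A, at 6.59, is off the axis.

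Class 3 semaphorins are secreted. SEMA3C, on chromosome 7 at 80742538 to 80922359 on the minus strand (GRCh38), had the highest level per kb of exon of all members in both groups. It had 244.6 and 236.7 CPM in control replicates 1 and 2, and 1339 and 1340 CPM in resistant replicates 1 and 2. The resistant libraries were thus each more than 5 times above either control, far beyond the spread within a pair. The log2 change was 2.48 (SE 0.0347, edgeR adjusted p = 9.48e-13), and it ranged from 2.43 to 2.67 over the 12 other settings tried. SEMA3C made up 65.4% ± 0.86 of all semaphorin counts in control and 87.1% ± 0.00315 in resistant libraries (mean ± SD, n = 2), shares that are not adjusted for gene length. Without it, the other 19 semaphorins together had 125.8 and 128.4 CPM in control and 198.9 and 199.1 CPM in resistant libraries.

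RefSeq lists 2 starts for SEMA3C, and gene counts do not say which one was used. The 30 bases after the inner start are exonic in 5 of its 9 GENCODE transcripts. Those after the outer start lie just outside the GENCODE gene, which ends at 80922359. Their match to 0 of 9 transcripts was therefore fixed in advance and says nothing about use of the outer start. The 250 bases before the inner start (chr7:80919052-80919301) have 77.6% GC, 39 CG pairs and 3 GC boxes, while those before the outer start have 36.4% GC, 2 CG pairs and none of the motifs searched. The window of SEMA5A, chr5:9546076-9546325, is printed because SEMA5A had the largest fold change of the members. It runs 5' to 3' on the minus strand and ends at the last base before the start (RefSeq, GRCh38.p14). Capitals mark every match to the motifs listed next.
SEMA5A: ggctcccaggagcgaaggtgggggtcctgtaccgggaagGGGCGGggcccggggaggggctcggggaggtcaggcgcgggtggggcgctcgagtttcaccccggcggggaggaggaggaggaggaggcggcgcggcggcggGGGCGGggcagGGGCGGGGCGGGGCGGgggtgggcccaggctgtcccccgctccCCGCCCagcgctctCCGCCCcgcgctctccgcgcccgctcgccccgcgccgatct
The motifs searched on both strands were the steroid hormone response half-site AGAACA, the AP-1 site TGANTCA, the GC box GGGCGG, the CCAAT box CCAAT, the TATA box TATAAA and the E-box CACGTG. The SEMA5A window has 82% GC and holds 7 GC boxes, 3 of which overlap in a run, and no other motif. Promoter windows were found for 27 of the 31 members, 48 windows in all, of which 30 hold a GC box, against 42.64% of 35116 RefSeq windows of the same length. The half-site is in 0 of the 48 windows and in 12.39% of all windows, which were not matched to the members for base composition. A full response element, searched as well, is in 1 of the 35116 windows and in 0 of the 48. A match is a description of letters, and a window without one says nothing about binding elsewhere in the gene.

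**Figure D2:**
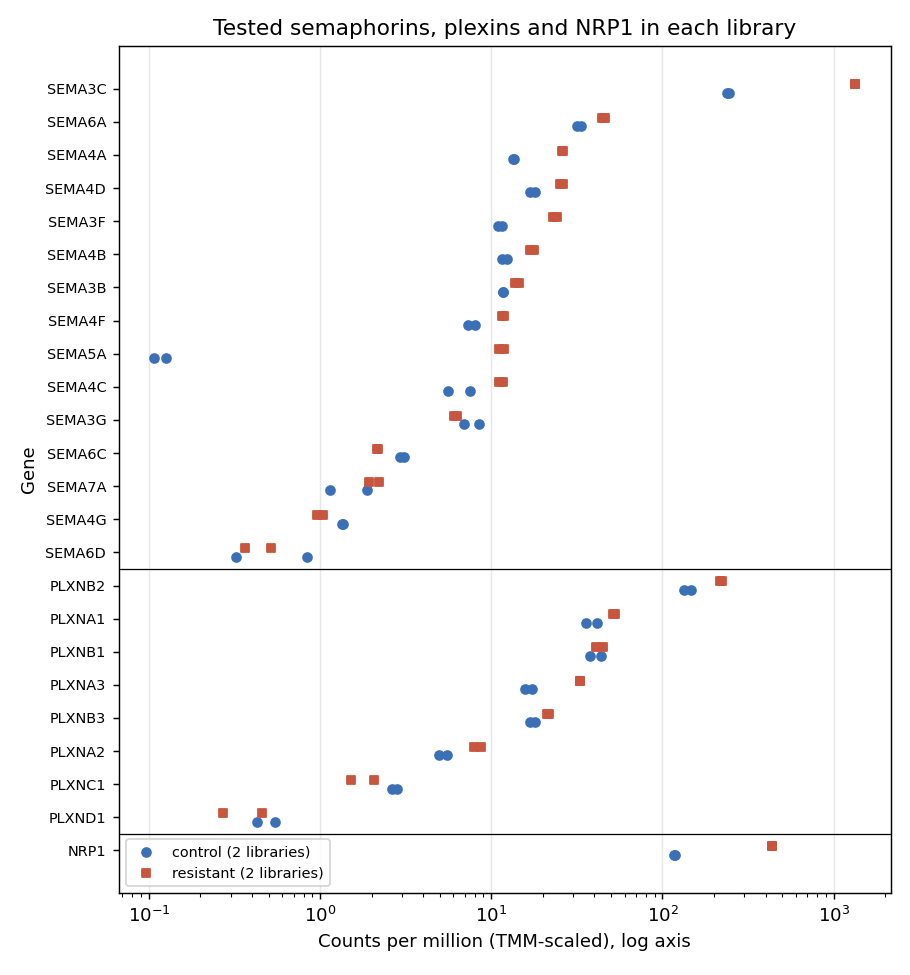
Level of each of the 24 tested members in each library, in TMM-scaled CPM on a log axis. Blue circles are the 2 control and red squares the 2 resistant libraries, and the lines separate semaphorins, plexins and NRP1. SEMA3C reaches 1339 and 1340 CPM in resistant cells, and SEMA5A moves from 0.107 to 0.126 CPM up to 11.1 to 11.8 CPM.

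SEMA3F, which signals through NRP2 and A-type plexins and is a candidate tumour suppressor on the short arm of chromosome 3, had 10.9 and 11.6 CPM in control and 24.3 and 22.9 CPM in resistant libraries. It rose 2.10-fold (log2 change 1.07, SE 0.0683, edgeR adjusted p = 6.55e-08), or by 0.73 on the log2 scale with the length and GC correction. SEMA3B, which lies close to it and is likewise a candidate suppressor, had 11.7 CPM in each control library and 14.5 and 13.7 CPM in the resistant ones. Its groups did not overlap, but the rise was small (log2 change 0.27, SE 0.0694, edgeR adjusted p = 0.0048). The sign of SEMA3B turned with the correction (-0.19, adjusted p = 0.0218), and the call ended without resistant replicate 1 (adjusted p = 0.0718) and with DESeq2 (0.0641). SEMA3G, a ligand of NRP2 best known from endothelium, had 6.96 and 8.48 CPM in control and 6.35 and 6.06 CPM in resistant libraries. It was called lower (log2 change -0.32, edgeR adjusted p = 0.0215), and it was not called without control replicate 2 (adjusted p = 0.304), without resistant replicate 2 (0.104), with DESeq2 (0.131), with no count filter (0.164) or with total count scaling (0.312). With the length and GC correction its log2 change was -0.63, still called.

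The other class 3 genes were close to silent and were not tested. SEMA3A, the first repellent found for vertebrate axons, had 4 counts in each control library and 17 and 11 counts in the resistant ones. After library scaling the resistant to control ratio was 2.03 (exact binomial 95% interval 0.90 to 5.14, counting error only). SEMA3D had 1 and 3 control counts and 1 and 0 resistant counts, and SEMA3E, the ligand of PLXND1, had 0 and 3 control counts and 1 in each resistant library. SEMA3A, SEMA3D and SEMA3E lie on chromosome 7 between 83363238 and 85186855, on the same arm and strand as SEMA3C.

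**Figure D3:**
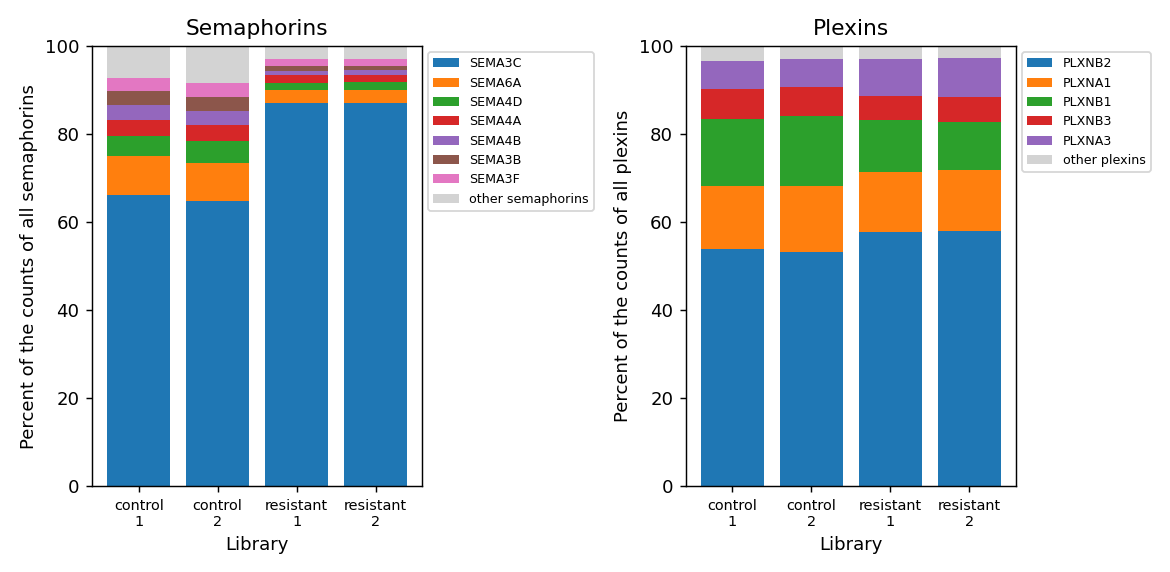
Share of each gene in the summed counts of all semaphorins (left) and all plexins (right), in percent, for each of the 4 libraries. SEMA3C takes 64.8% and 66.1% of semaphorin counts in control and 87.1% in both resistant libraries, while PLXNB2 holds 53.1% to 58% of plexin counts throughout.

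Class 4 semaphorins are membrane-bound ligands of B-type plexins, and several can be shed by proteases. All 6 were tested, and 5 were called higher and 1 was not called, against 42.3% of protein-coding genes called higher. SEMA4A, known from immune cells and the retina, had 13.6 and 13.5 CPM in control and 26.2 and 25.8 CPM in resistant libraries (log2 change 0.94, SE 0.0615, edgeR adjusted p = 7.95e-08). SEMA4C, a ligand of PLXNB2, had 5.58 and 7.52 CPM in control and 11.1 and 11.7 CPM in resistant libraries, a log2 change of 0.78 (SE 0.113, edgeR adjusted p = 7.33e-05). SEMA4F, reported to act on nerves near prostate tumours, had 7.30 and 8.02 CPM against 11.6 and 11.9 CPM (log2 change 0.61, edgeR adjusted p = 3.68e-05). These 3 genes stayed higher with the length and GC correction, at 0.61, 0.42 and 0.32. In none of them did the groups overlap, as in 81.3% of all genes tested.

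SEMA4D, the ligand of PLXNB1 and known as CD100 on leukocytes, had 16.7 and 18.1 CPM in control and 25.2 and 26.1 CPM in resistant libraries. Its log2 change was 0.56 (SE 0.0641, edgeR adjusted p = 1.15e-05), and 0.10 with the correction (adjusted p = 0.156). SEMA4B, a less studied relative found at synapses, had 12.3 and 11.5 CPM against 16.9 and 17.8 CPM (log2 change 0.55, edgeR adjusted p = 2.49e-05), and 0.11 with the correction (adjusted p = 0.207). For both genes the groups were apart but the call ended with the correction. SEMA4G was low, at 1.34 and 1.35 CPM in control and 1.04 and 0.965 CPM in resistant libraries, and was not called (edgeR adjusted p = 0.0945). With the correction it was called lower (-0.69, adjusted p = 0.0104). Of the exonic bases of SEMA4G, 27.4% are shared with MRPL43 and AL133215.1 on the other strand, so its level is uncertain where the counting ignored strand. MRPL43 itself went from 60.9 to 32.8 CPM on average, and its part in the SEMA4G values was not tested.

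Class 5 semaphorins carry thrombospondin repeats beside the sema domain. SEMA5A, on chromosome 5 at 9035026 to 9546075 on the minus strand, binds PLXNB3 and A-type plexins. It had 3 counts in each control library and 569 and 458 counts in the resistant ones, or 0.126 and 0.107 CPM against 11.8 and 11.1 CPM. The log2 change was 6.59 (SE 0.204, edgeR adjusted p = 1.8e-10) and ranged from 6.30 to 6.77 over the other 12 settings. SEMA5A passed the low-count filter only through the resistant libraries, so it was tested only because it was high there. The ratio of group counts per scaled library was 99.1, with an exact binomial 95% interval of 45.4 to 271 that covers counting error only, because 6 control counts set its size. Per kb of exon SEMA5A reached 0.944 CPM in resistant cells, still below SEMA4C and SEMA4F at 1.85 and 1.88. SEMA5B, its only paralog in the class, had 0 counts in both control libraries and 7 and 2 in the resistant ones, and was not tested.

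The chromosomal neighbours of the 3 leading genes were looked at next, as the 3 nearest tested protein-coding genes on each side. Among all protein-coding genes tested, 42.3% were called higher and 31.4% lower, and no regional pattern was tested. Around SEMA5A, 5 of 6 were called lower and 1 was not called, with log2 changes of -1.30 to 0.06. SNHG18, a noncoding gene that starts within the printed SEMA5A window and runs the other way, had 0 counts in both control libraries and 3 and 5 in the resistant ones. Around SEMA3C, 3 of 6 were higher and 1 lower, with log2 changes of -2.60 to 1.70. The nearest, CD36, a fatty acid receptor 63 kb away, had 5 and 12 control counts and 58 and 38 resistant counts (log2 change 1.70, edgeR adjusted p = 0.00106). CD36 passed the count filter only through the resistant libraries. GNAI1, a G protein alpha subunit 516 kb away, had 6.21 and 6.31 CPM in control and 0.871 and 1.21 CPM in resistant libraries, 6.07-fold lower (edgeR adjusted p = 6.33e-08). Around NRP1, 3 of 6 were higher and 3 lower, with log2 changes of -0.64 to 0.29. The nearest, ITGB1, 172 kb away, is the integrin beta subunit that SEMA7A can also bind. It had 301.5 and 305.0 CPM in control and 374.5 and 369.2 CPM in resistant libraries, a log2 change of 0.29 (SE 0.0349, edgeR adjusted p = 1.47e-05).

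Class 6 semaphorins are membrane ligands of A-type plexins, and the only class 7 member, SEMA7A, is held on the membrane by a lipid anchor. SEMA6A, a ligand of PLXNA2 and PLXNA4, was second to SEMA3C among semaphorins per kb in control cells, with 33.3 and 31.7 CPM in control and 44.6 and 46.2 CPM in resistant libraries. Its log2 change was 0.48 (SE 0.0532, edgeR adjusted p = 7.49e-06), and 0.11 with the correction (adjusted p = 0.0501). SEMA6C had 2.94 and 3.10 CPM in control and 2.16 and 2.17 CPM in resistant libraries, and was called lower (log2 change -0.48, edgeR adjusted p = 0.0146). The SEMA6C call ended without control replicate 2 (adjusted p = 0.061), without resistant replicate 1 (0.0538), with DESeq2 (0.142), with total count scaling (0.106) and with no count filter (0.0872). With the length and GC correction its log2 change was -0.91, still called. SEMA6D, a ligand of PLXNA1, ranged from 0.321 to 0.839 CPM in control and from 0.362 to 0.519 CPM in resistant libraries, with overlapping groups (edgeR adjusted p = 0.521). SEMA6B had at most 5 counts in a library and was not tested.

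SEMA7A, the ligand of PLXNC1 and of integrins, had 1.89 and 1.14 CPM in control and 2.22 and 1.93 CPM in resistant libraries. The resistant values lay just above the controls, and the difference was not called (log2 change 0.48, edgeR adjusted p = 0.0815). It was called without control replicate 1 (0.87, adjusted p = 0.0015), without resistant replicate 2 (adjusted p = 0.0387), with total count scaling (0.0228), with no count filter (0.0157) and with the replicate number as a block (0.0462). Without control replicate 2 its log2 change was 0.15 (adjusted p = 0.605), and with the length and GC correction 0.23 (adjusted p = 0.402).

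**Figure D4:**
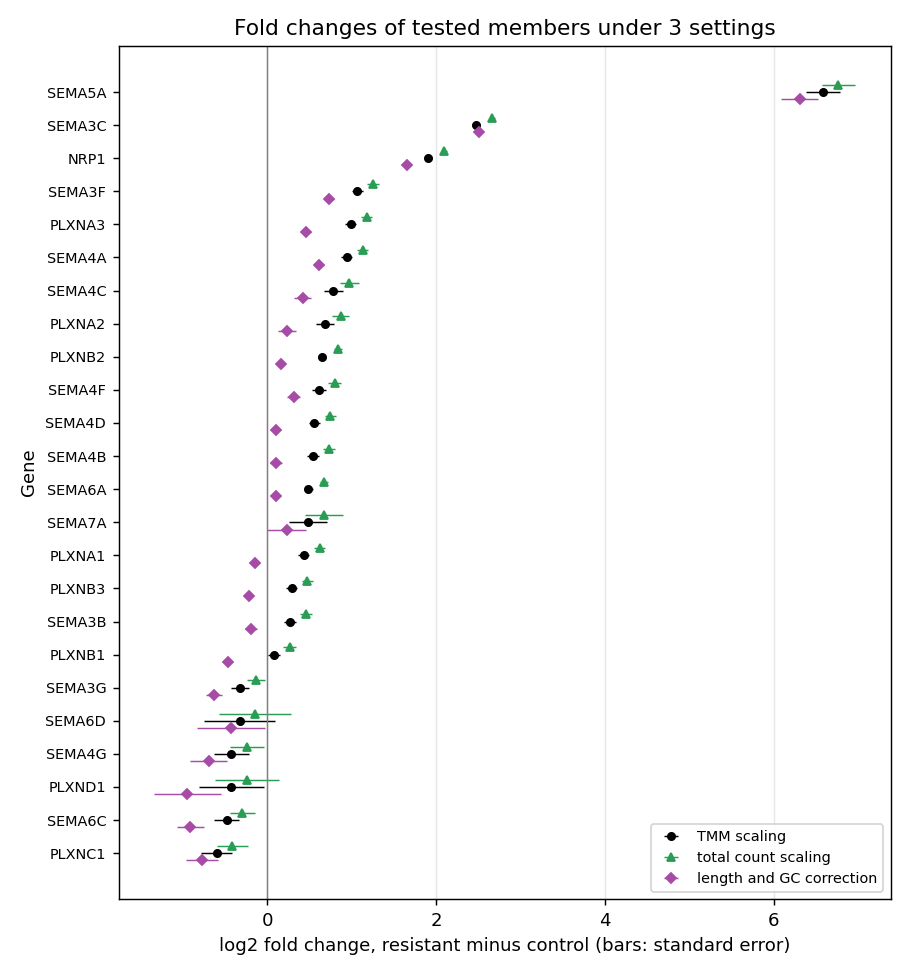
Log2 change, resistant minus control, of the 24 tested members under TMM scaling (black circles), total count scaling (green triangles) and the length and GC correction (purple diamonds), with bars for the standard error. SEMA5A, SEMA3C and NRP1 stay at 1.66 or more under each of the 3, while PLXNA1, PLXNB1, PLXNB3 and SEMA3B cross 0 with the correction.

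Plexins are the signalling receptors. Of 9 genes, 8 were tested, 5 were called higher and PLXNC1 lower, each by less than 2-fold. Over protein-coding genes tested, 42.3% were called higher and 31.4% lower. PLXNB2, a receptor of SEMA4C that is broadly expressed in epithelia, had the highest level per kb among plexins and took 53.5% ± 0.486 of plexin counts in control and 57.9% ± 0.169 in resistant libraries (mean ± SD, n = 2). It had 133.5 and 146.6 CPM in control and 224.1 and 215.7 CPM in resistant libraries (log2 change 0.65, SE 0.0487, edgeR adjusted p = 2.61e-07). With the length and GC correction it was still called, at 0.17 (adjusted p = 0.000206). PLXNB1, the receptor of SEMA4D, had 37.6 and 44.0 CPM in control and 45.2 and 41.1 CPM in resistant libraries. Its groups overlapped and it was not called (log2 change 0.08, edgeR adjusted p = 0.359). PLXNB1 was called higher without control replicate 2 (0.21, adjusted p = 0.0014), with total count scaling (0.27, adjusted p = 0.0101) and with no count filter (0.18, adjusted p = 0.0336), and lower with the correction (-0.47, adjusted p = 7.45e-07). PLXNB3, a receptor of SEMA5A, had 16.9 and 18.1 CPM against 21.6 and 21.1 CPM. It was called higher (log2 change 0.29, SE 0.0631, edgeR adjusted p = 0.00177), and lower with the correction (-0.22, adjusted p = 0.00252). PLXNB3 shares 20.4% of its exonic bases with SRPK3 on the same strand, so its level is uncertain there. SRPK3 went from 4.89 CPM on average to 2.49, and its part was not tested.

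A-type plexins form receptor complexes with neuropilins. PLXNA3 had 15.7 and 17.4 CPM in control and 32.9 and 32.8 CPM in resistant libraries, the largest fold change among plexins (1.99-fold, log2 change 0.99, SE 0.0651, edgeR adjusted p = 8.38e-08). It stayed higher with the correction, at 0.46. PLXNA1 had 35.6 and 41.6 CPM against 53.1 and 51.3 CPM, without overlap (log2 change 0.43, SE 0.0653, edgeR adjusted p = 0.00011). With the correction PLXNA1 was called lower (-0.14, adjusted p = 0.0156). PLXNA2 had 5.50 and 4.92 CPM against 8.69 and 7.94 CPM (log2 change 0.68, SE 0.103, edgeR adjusted p = 0.000113), and it was not called with the correction (0.24, adjusted p = 0.0575). PLXNA4 had 2 and 3 control counts and 10 and 3 resistant counts, and was not tested. After library scaling the resistant to control ratio was 1.5 (exact binomial 95% interval 0.50 to 5.39, counting error only).

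PLXNC1, the receptor of SEMA7A, was low, with 2.64 and 2.82 CPM in control and 2.05 and 1.52 CPM in resistant libraries. It was called lower (log2 change -0.60, SE 0.186, edgeR adjusted p = 0.0139), but not without resistant replicate 2 (adjusted p = 0.108), with DESeq2 (0.0863) or with total count scaling (0.0752). PLXND1, the receptor of SEMA3E, had 13 and 12 control counts and 13 and 19 resistant counts. That is 0.545 and 0.428 CPM against 0.270 and 0.458 CPM, and it was not called (log2 change -0.43, edgeR adjusted p = 0.353). Its log2 change was -0.95 with the correction (adjusted p = 0.0464).

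The neuropilins were used very unequally. NRP1, on chromosome 10 at 33177492 to 33336262 on the minus strand, had 116.2 and 117.6 CPM in control and 435.4 and 437.6 CPM in resistant libraries. The values within each pair were nearly the same and the groups lay far apart (log2 change 1.90, SE 0.0372, edgeR adjusted p = 9.87e-12). Over the other 12 settings the log2 change of NRP1 was 1.66 to 2.09, and all 12 called it. NRP2, the preferred co-receptor of SEMA3F and SEMA3G, had 7 and 6 control counts and 3 in each resistant library, and was not tested. After library scaling its resistant to control ratio was 0.267 (exact binomial 95% interval 0.083 to 0.753, counting error only). With no count filter NRP2 was called lower. NRP1 made up 99.78% ± 0.0498 of neuropilin counts in control and 99.98% ± 0.00159 in resistant libraries (mean ± SD, n = 2).

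Levels per kb of exonic length compare genes only roughly, because the length covers all annotated exons, whichever transcripts were expressed. By this measure the order at the top was SEMA3C, PLXNB2 and NRP1 in control cells, at 38.4, 19.3 and 10.2 CPM per kb. In resistant cells it was SEMA3C, NRP1 and PLXNB2, at 213.7, 37.9 and 30.3 CPM per kb. All other members were at 4.19 CPM per kb or less in control and 4.89 or less in resistant cells. SEMA3F moved from the eighth to the fourth place, next to PLXNA1, whose level per kb was 4.77 in resistant cells. SEMA3C and NRP1 stood first and second in resistant cells, and the receptors PLXND1 and NRP2 were at 0.546 CPM or less in every library.

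Ligands and receptors known to pair were set side by side. SEMA4C and PLXNB2 were both called higher, with and without the correction. SEMA5A rose while PLXNB3, at 21.1 to 21.6 CPM in resistant cells, had a small change whose direction turned with the correction. SEMA4D was called higher and PLXNB1 was not called. SEMA7A was not called and PLXNC1 was called lower. SEMA3E and PLXND1 were both at or below 0.546 CPM in every library. Differences between the changes of paired genes were not tested.

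The rest of the pathway was taken as 3 lists. Of 24 receptor partners, co-receptors and competing ligands, 15 were tested, 10 were called higher and 2 lower (median log2 change 0.56), against 42.3% and 31.4% of protein-coding genes tested. Corrected for length and GC content, 9 of the 15 rose and 4 fell, against 31.3% of all genes tested called higher. ERBB2 and MET, receptor tyrosine kinases that can associate with B-type plexins, rose 2.44-fold and 2.47-fold. ERBB2 had 112.5 and 115.4 CPM in control and 277.8 and 279.4 CPM in resistant libraries, and MET had 2.43 and 2.495 CPM against 6.60 and 5.57 CPM. PTK7, a pseudokinase receptor, rose 2.33-fold and VEGFB 1.81-fold. With the correction the log2 change fell from 1.29 to 0.76 for ERBB2 and from 1.22 to 0.75 for PTK7, both still called. VEGFA, the growth factor that also binds NRP1, moved against its receptor, from 215.4 and 221.1 CPM in control to 124.4 and 126.6 CPM in resistant libraries (log2 change -0.80, SE 0.0393, edgeR adjusted p = 6.93e-09), or -1.30 with the correction. ITGA1, an integrin alpha subunit that with ITGB1 binds SEMA7A, was 2.47-fold lower. KDR, the main VEGFA receptor, is named after its values were seen. It had 0 and 1 control counts and 24 and 13 resistant counts, and passed the count filter only through the resistant libraries. NRCAM, also called higher, is named because it passed the filter in the same way. It had 6 and 10 control counts and 37 and 29 resistant counts. HGF, the ligand of MET, had 0 counts in all libraries.

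Of 37 genes that signal below plexins, 35 were tested, 18 were called higher and 6 lower (median log2 change 0.16). The 51.4% called higher is near the 42.3% of protein-coding genes called higher. ARHGAP35, a GTPase-activating protein for RHOA, had 84.1 and 84.5 CPM in control and 210.9 and 209.4 CPM in resistant libraries (log2 change 1.32, SE 0.0401, edgeR adjusted p = 1.53e-10). ARHGEF12, the exchange factor that B-type plexins bind to activate RHOA, rose 1.85-fold, and ROCK2, a kinase below RHOA, rose 1.97-fold. DPYSL2, the collapsin response mediator of SEMA3A signalling, rose 1.85-fold. RND3, an atypical small GTPase that opposes RHOA, was the largest fall, from 18.3 and 17.3 CPM to 1.66 and 1.93 CPM (log2 change -3.32, SE 0.101, edgeR adjusted p = 1.59e-10). FES, a tyrosine kinase linked to plexin A signalling, was 2.77-fold lower. MICAL1, an actin-oxidising enzyme that plexins engage, was 1.59-fold lower and CDK5, a kinase in SEMA3A signalling, 1.39-fold lower. The log2 change of MICAL1 was -0.67, and -1.09 with the correction, and that of CDK5 was -0.48, and -0.29 with total count scaling. With the length and GC correction 16 of the 35 were called higher and 16 lower (median 0.00 on the log2 scale, at -0.003). Of all genes tested, 31.3% were called higher with it. The 8 named genes kept their call and direction with the correction.

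Of 7 proteases that process semaphorins, 6 were tested, 4 were called higher and 2 were not called (median log2 change 0.59), against 42.3% of protein-coding genes called higher. FURIN, which cleaves class 3 semaphorins, had 27.4 and 28.8 CPM in control and 42.9 and 40.0 CPM in resistant libraries (log2 change 0.56, SE 0.0585, edgeR adjusted p = 4.77e-06). PCSK6, a related convertase, rose 1.54-fold (log2 change 0.62). With the length and GC correction the log2 change was 0.23 for FURIN and 0.18 for PCSK6 (adjusted p = 0.000592 and 0.0163). ADAM10, a sheddase, rose from 193.7 and 181.4 CPM to 336.6 and 340.1 CPM (log2 change 0.85, edgeR adjusted p = 5.92e-09). PCSK5 was low, at 0.252 to 0.627 CPM over the 4 libraries, and its call (edgeR adjusted p = 0.02) ended without control replicate 1 (0.105), without resistant replicate 1 (0.07), without resistant replicate 2 (0.0954), with DESeq2 (0.189) and with the correction (0.152). PCSK5 also passed the count filter only through the resistant libraries. With the correction 3 of the 6 were higher and 2 lower, against 31.3% of all genes tested called higher.

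**Figure D5:**
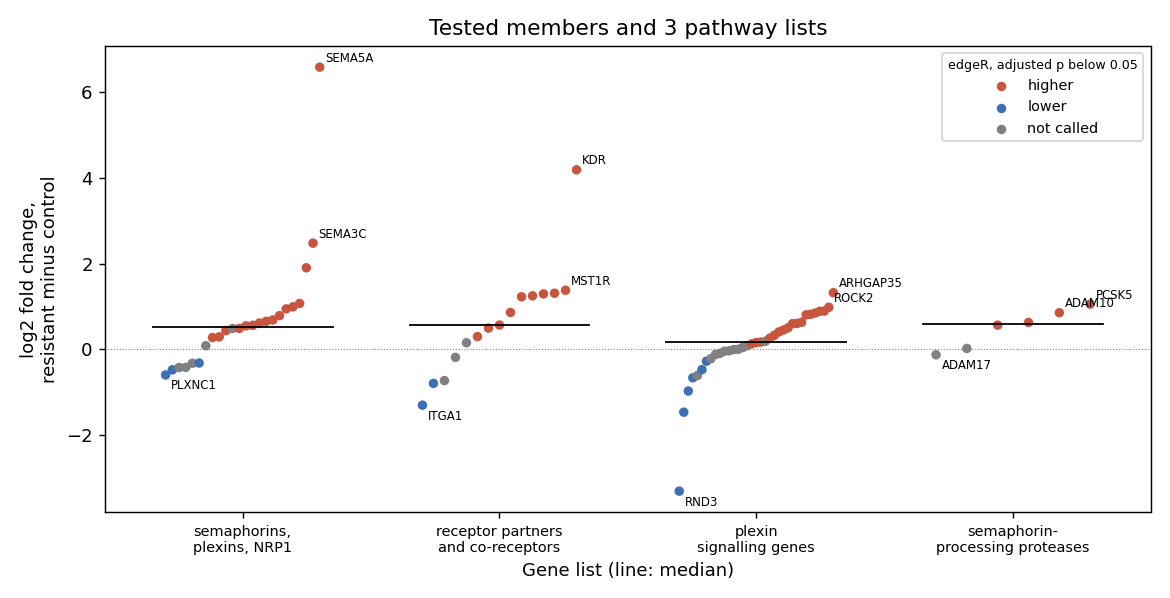
Log2 change, resistant minus control, of each tested gene in 4 lists, ordered within a list, with black lines at the medians (0.52, 0.56, 0.16 and 0.59). Red points were called higher, blue points lower and grey points not called by edgeR at an adjusted p below 0.05. SEMA5A, at 6.59, and RND3, at -3.32, are the extremes.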

How the data were processed

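The deposited values are whole-number counts for each gene, in a separate table for each of the 4 libraries, with no scaling by the authors. The submitters' processing notes name STAR 2.5.2b, HTSeq and the build GRCh38 (hg38). Counting mode, strand setting and annotation release are not stated there or in the labels. The 5 summary lines at the end of each table held 55.4% to 74.4% of HTSeq records and were left out. Identifiers were matched without version to GENCODE 29, which gave 56753 of 60483 genes a symbol, position and exonic length.

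Counts were filtered with filterByExpr (minimum count 10), scaled with TMM and tested with edgeR 4.0.16 in R 4.3.3, group as the only term, all 4 libraries, 2 residual degrees of freedom. Benjamini-Hochberg adjustment ran over 20325 genes, and a gene was called below 0.05. The fit was also run on simulated counts, which lacked the trends with length and GC content seen here, so that run does not speak to them. The standard error is the size of the log2 change divided by the square root of F. CPM uses TMM-scaled library sizes. Replicate pairs differed by more than sampling noise (chi-square per degree of freedom 5.67 and 2.38).

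Alternatives were size factors of DESeq2, total count scaling, DESeq2 1.42.0, no count filter, a filter of 1 CPM, each library left out, the replicate block, and a smooth of log2 CPM (prior count 2) on exonic length and GC content used as an offset (mgcv), alone and with the block. Members and lists were chosen with earlier results of these data known. From each list, up to 4 called genes per direction are named, those of smallest adjusted p. Protein sequences were not used here. Some cell type markers are not reported here.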

Additional observations from a re-analysis of the deposited data

How the results depend on the processing

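Of 12 other settings, the length and GC correction moved the member counts most, to 9 called higher and 9 lower and a median log2 change of 0.106, and to the same values when the replicate block was added. The number called lower was 0 with total count scaling and 0 with DESeq2. The median was 0.703 with total count scaling, 0.58 with no count filter and 0.503 with the 1 CPM filter. Total count scaling moved the median of all genes from -0.016 to 0.172. Leaving out each library in turn gave 1 to 3 members lower (1 without control replicate 2 and 1 without resistant replicate 2) and medians of 0.546 to 0.562. With the correction, alone and with the block, 4 and 4 receptor partners, 16 and 15 plexin signalling genes, and 2 and 2 proteases were lower, and 1 protease was lower with the 1 CPM filter. The direction turned, with the correction alone and with the block, for PLXNA1 (-0.14 and -0.137), PLXNB1 (-0.468 and -0.468), PLXNB3 (-0.222 and -0.222) and SEMA3B (-0.193 and -0.198). Without control replicate 1 it turned for PLXNB1 (-0.022) and SEMA6D (0.473), neither of them called there; without control replicate 2 these were 0.21 and -0.899. Same-numbered libraries did not deviate together (r = -0.023 across 20325 genes, which are not independent). With 2 libraries per group this value cannot settle whether the replicate numbers pair cultures, and the labels do not say. With the replicate block 17 members were called higher and 3 lower, against 16 and 3. Members with few counts were limited by depth: at most 17 counts in a library for the 7 that were not tested.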
